A study of Mus musculus with 15 samples.

Results

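The mRNAs of 9 enzymes of betaine, glycine, arginine and tyrosine metabolism were examined in the podocyte fraction of mouse kidney: Bhmt, Bhmt2, Dmgdh, Sardh, Gldc, Gatm, Ass1, Hpd and Fah, 9 of the 46078 genes in the deposited table. They were chosen by name for their place in these pathways, and earlier results of the aging and aPD1ab comparisons in the same libraries were known when they were picked. Their fold changes and adjusted p-values therefore describe them, and nothing is read from how many of them passed a test. The fractions came from male C57BL/6J mice. Kidney cortex was digested, and cells that bound nephrin antibodies were held back on magnetic beads. Young mice were 4 months old and were not injected. Aged mice were 21 months old at the start and were injected intraperitoneally once a week for 8 weeks with 12 mg/kg of either the isotype control IgG2a (clone 2A3) or an antibody against PD-1 (clone RMP1-14, aPD1ab), while titles of the aPD1ab samples state 47 days. The labels list 5 samples in each group, and the libraries of 13 mice could be tied to a group, 5 young, 4 that received IgG2a and 4 that received aPD1ab; the link rests on mouse numbers printed in the study's plot of the samples. Injection and age differ together between young and aged mice, so their parts cannot be told apart.

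Betaine gives a methyl group to homocysteine through Bhmt, and the dimethylglycine that is left is cut down to sarcosine by Dmgdh and then to glycine by Sardh, both in mitochondria. Bhmt2 is a relative of Bhmt that takes the methyl group from S-methylmethionine. Gldc is the decarboxylating subunit of the glycine cleavage system. Gatm joins arginine and glycine into guanidinoacetate, the precursor of creatine, and Ass1 makes argininosuccinate from citrulline on the way to arginine. Hpd and Fah act early and last in the breakdown of tyrosine. In the kidney, synthesis of arginine and of guanidinoacetate is a known task of the proximal tubule, the segment that follows the glomerulus, whereas podocytes are the epithelial cells of the glomerular filter.

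Libraries held 19912969 to 32717100 counted reads. All 12 podocyte markers had over 3 counts in every library, but the marker levels differed by group. Summed podocyte marker levels were 1080 to 1722 CPM (reads of a gene scaled to library size, with TMM factors from edgeR) in young mice, 632 to 796 CPM in aged IgG2a-injected mice and 425 to 986 CPM in aged aPD1ab-injected mice. Nphs1, which encodes the nephrin used for sorting, ranged from 43.2 to 81.4 CPM in the young group, from 4.15 to 19.4 CPM in the IgG2a group and from 7.61 to 42.8 CPM in the aPD1ab group. The 20 proximal tubule markers, led by Kap and Slc34a1, had over 3 counts in every library as well, so the fraction held tubule RNA throughout. Their sum was 12966 to 19825 CPM in young mice and 9559 to 27197 CPM with aPD1ab. One aged IgG2a library stood apart: replicate 1 had 9498 CPM of these markers, while replicates 2 to 4 had 1730, 2742 and 2246 CPM. The members' fold changes against young mice and the counts of members called that rest on the aged IgG2a group are therefore given with and without replicate 1. Other results are given over all libraries unless stated.

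The region in front of Bhmt2 and Dmgdh is shown first because the results below set these neighbors side by side. Bhmt (chromosome 13, 93616675 to 93637961), Bhmt2 (93655720 to 93674302) and Dmgdh (93674433 to 93752833) lie next to each other in GRCm38. Bhmt and Bhmt2 are on the minus strand and Dmgdh is on the plus strand, so that Bhmt2 and Dmgdh are read away from each other. The 130 bases between them are printed from the plus strand (RefSeq, GRCm38.p6). The bases just upstream of Ass1, Gatm and Hpd, 3 members with a start region of their own, follow at the same length, each on its gene's strand. Capitals mark the motifs GGGCGG and CCAAT on either strand.
Bhmt2 and Dmgdh, chr13:93674303-93674432, plus strand: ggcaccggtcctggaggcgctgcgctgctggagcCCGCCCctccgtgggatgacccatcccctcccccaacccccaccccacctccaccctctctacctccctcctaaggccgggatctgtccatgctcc
Ass1, chr2:31470077-31470206, plus strand: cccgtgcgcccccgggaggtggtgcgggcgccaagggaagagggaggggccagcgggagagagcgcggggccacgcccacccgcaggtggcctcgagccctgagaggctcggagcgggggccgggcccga
Gatm, chr2:122611304-122611433, minus strand: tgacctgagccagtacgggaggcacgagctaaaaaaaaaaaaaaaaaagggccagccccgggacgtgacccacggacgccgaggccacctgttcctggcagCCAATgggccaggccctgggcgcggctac
Hpd, chr5:123182728-123182857, minus strand: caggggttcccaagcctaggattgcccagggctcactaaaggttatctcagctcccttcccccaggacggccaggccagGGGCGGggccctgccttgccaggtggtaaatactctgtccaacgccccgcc

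G and C made up 70.8% of the bases between Bhmt2 and Dmgdh, against 80.0% in front of Ass1, 62.3% in front of Gatm and 64.6% in front of Hpd. The stretch between Bhmt2 and Dmgdh held GGGCGG once, read on the minus strand, and no CCAAT. In windows of 300 bases around the RefSeq starts of all 9 members (250 before, 50 after), 6 motifs were searched on both strands, a choice made after the sequences had been seen. GGGCGG, found in 35.6% of 32817 promoters, occurred in the windows of Bhmt2, Dmgdh, Gldc, Ass1, Hpd and Fah. The RefSeq starts of Bhmt2 and Dmgdh lie 134 bases apart, so their windows overlap and their GGGCGG matches are the same sites. The printed stretches end at the gene starts given above, and the RefSeq starts of the windows can differ from these, so that the match in the window of Ass1 lies outside its printed stretch. CCAAT, found in 37.4% of promoters, occurred in the windows of Bhmt, Gldc and Gatm. The window of Bhmt alone held AAAGGTCA, 49 bases before the start and present in 1.51% of promoters, and TCAAGGTCA, 75 bases before the start and present in 0.424%. TATAAA (13.6% of promoters) and GTTAAT (7.10%) had no match in the windows of the members. A match of letters describes the sequence and does not show that a factor binds there.

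Expressed per transcript length, the 9 mRNAs covered a wide range in young mice. Ass1 was the most abundant, with 1133 ± 188 TPM (CPM divided by exon length and rescaled, SD, n = 5), followed by Gatm with 271 ± 50.5, Fah with 145 ± 4.68 and Sardh with 85.3 ± 9.92 TPM. The young libraries of these 4 genes did not overlap with those of the next gene in the order. Bhmt2 with 29.6 ± 5.40, Dmgdh with 22.8 ± 4.87, Gldc with 21.0 ± 5.99 and Hpd with 10.5 ± 5.54 TPM came next, and each overlapped with its neighbor in the order. Bhmt was the least abundant, with 0.737 ± 0.256 TPM, below every young value of Hpd. In aged aPD1ab-injected mice the order was the same but for Gldc (28.6 ± 24.8 TPM, n = 4), which stood before Dmgdh (23.1 ± 16.3 TPM), with ranges that overlapped. The 9 genes together took 0.172 to 0.266% of the counted reads of young mice, 0.0344 to 0.137% with IgG2a and 0.129 to 0.363% with aPD1ab. Without replicate 1 the highest IgG2a share was 0.0453%.

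**Figure D1:**
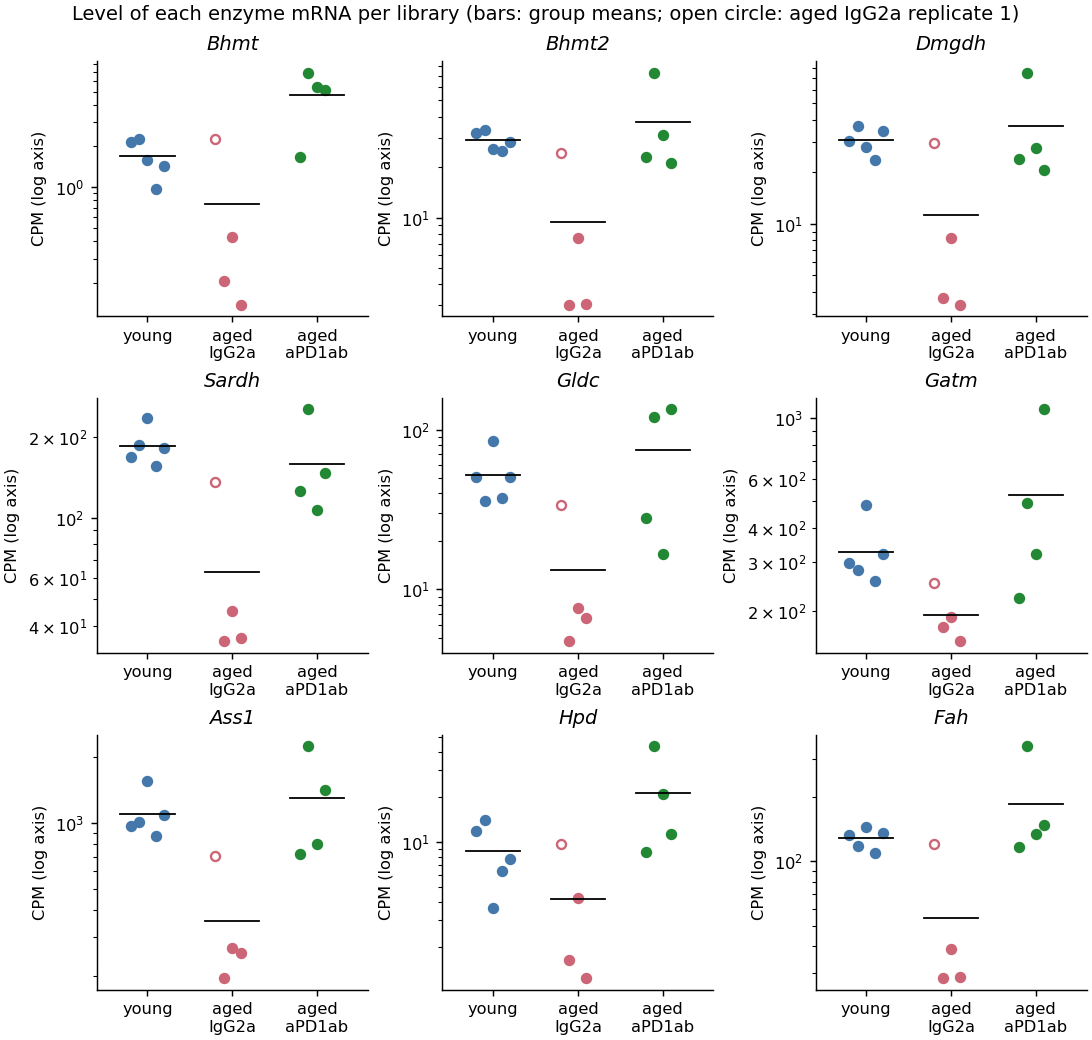
CPM of each of the 9 mRNAs (log axis) in every library, by group (young n = 5, aged IgG2a n = 4, aged aPD1ab n = 4), with bars at the group means. In every panel the aged IgG2a library drawn as an open circle, replicate 1, lies above the other 3 of its group, for Ass1 at 707 CPM against 196 to 269.

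The first comparison asked how the enzymes differed between aged IgG2a-injected and young mice. Ass1 (chromosome 2, 31470207 to 31520672) was at 968, 1006, 1557, 870 and 1083 CPM in young replicates 1 to 5 and at 707, 196, 269 and 254 CPM in aged IgG2a replicates 1 to 4. All aged IgG2a libraries lay below all young ones, and the log2 fold change was -1.57 (SE 0.37, edgeR BH-adjusted p = 0.0244, by the method of Benjamini and Hochberg over all genes tested). Without replicate 1 it was -2.14 (SE 0.21, edgeR BH-adjusted p = 3.1e-05). In bulk libraries such a difference cannot be divided into fewer cells of a type and less RNA per cell. Gatm, which uses arginine (chromosome 2, 122594467 to 122611303), differed least. It was at 298, 280, 483, 256 and 321 CPM in young mice and at 252, 175, 190 and 155 CPM with IgG2a, again without overlap. Its log2 fold change was -0.70 (SE 0.21, edgeR BH-adjusted p = 0.0485), and -0.86 without replicate 1 (edgeR BH-adjusted p = 0.00532).

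In the betaine to glycine chain and its relative Bhmt2, Sardh and Gldc fell and Bhmt, Bhmt2 and Dmgdh did not pass the test over all libraries. Sardh (chromosome 2, 27188393 to 27248337) was at 168, 186, 234, 155 and 181 CPM in young mice and at 136, 35.0, 45.1 and 35.9 CPM with IgG2a. Gldc (chromosome 19, 30098447 to 30175429) was at 50.7, 35.8, 85.0, 37.1 and 50.9 CPM in young mice and at 33.9, 4.74, 7.65 and 6.64 CPM with IgG2a. Neither gene's aged IgG2a libraries reached a young value, and replicate 1 came nearest. The log2 fold change was -1.50 for Sardh (SE 0.39, edgeR BH-adjusted p = 0.0313) and -1.91 for Gldc (SE 0.56, edgeR BH-adjusted p = 0.0429). Without replicate 1 it was -2.20 for Sardh (edgeR BH-adjusted p = 5.7e-06) and -2.99 for Gldc (edgeR BH-adjusted p = 2.0e-04). Dmgdh was at 30.3, 37.1, 27.8, 23.6 and 34.6 CPM in young mice and at 29.6, 3.72, 8.24 and 3.39 CPM with IgG2a, so that replicate 1 lay inside the young range and the other 3 far below it. Bhmt2 was at 32.1, 33.3, 25.6, 25.1 and 28.1 CPM in young mice and at 24.2, 3.03, 7.54 and 3.04 CPM with IgG2a, so that replicate 1 lay just below the lowest young library. The log2 fold changes were -1.38 for Dmgdh (edgeR BH-adjusted p = 0.107) and -1.54 for Bhmt2 (edgeR BH-adjusted p = 0.0738). Without replicate 1 they were -2.53 (edgeR BH-adjusted p = 2.0e-04) and -2.61 (edgeR BH-adjusted p = 1.6e-04). Bhmt rested on few reads, with 29 to 74 in young libraries and 77, 5, 8 and 2 in aged IgG2a replicates 1 to 4. Its level was 0.973 to 2.26 CPM in young mice and 2.26, 0.204, 0.431 and 0.138 CPM with IgG2a, a log2 fold change of -0.99 (edgeR BH-adjusted p = 0.306) that was -2.61 without replicate 1 (edgeR BH-adjusted p = 0.00114).

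The tyrosine enzymes did not pass the test over all libraries. Fah (chromosome 7, 84585159 to 84606722) was at 132, 118, 145, 109 and 136 CPM in young mice and at 121, 28.5, 38.8 and 28.8 CPM with IgG2a. Hpd (chromosome 5, 123171807 to 123182727) was at 11.8, 14.0, 3.61, 6.38 and 7.65 CPM in young mice and at 9.64, 1.64, 4.26 and 1.24 CPM with IgG2a. Replicate 1 lay within the young range for both, and for Hpd replicate 3 lay above the lowest young library too. The log2 fold changes were -1.19 for Fah (edgeR BH-adjusted p = 0.0664) and -0.97 for Hpd (edgeR BH-adjusted p = 0.253), and without replicate 1 they were -1.94 (edgeR BH-adjusted p = 5.9e-06) and -1.81 (edgeR BH-adjusted p = 0.0242).

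Over all mapped libraries, 4 of the 9 members were called lower and 0 higher at an edgeR BH-adjusted p under 0.05, while 8.38% of the 15953 genes tested were called lower and 9.05% higher. The members' median log2 fold change was -1.38, and that of all genes was 0.04. For 5 of the 9 members all aged IgG2a libraries lay below all young ones, and for 0 above. Of the 16330 genes kept, 1567 were lower and 780 higher without overlap in the same way. Without aged IgG2a replicate 1, 9 of 9 members were called lower, beside 23.5% of genes lower and 22.1% higher, with a median of -2.20 for the members and -0.01 for all genes. In that case 8 members were lower without overlap, beside 4448 of the genes kept that were lower and 3153 that were higher. With 1 library left out, all 4 calls held only where that library was aged IgG2a replicate 1. None held without young replicate 1 or 3 or without aged IgG2a replicate 2, 3 or 4, by edgeR with at least 6 members at an unadjusted p under 0.05 each time. Ass1 alone was called without young replicate 2, 4 or 5. Calls over all genes fell too where calls were lost, from 2780 to between 553 and 1504. The log2 fold changes there were -1.38 to -1.64 for Ass1, -1.30 to -1.55 for Sardh, -1.63 to -2.02 for Gldc and -0.52 to -0.78 for Gatm. Over all libraries DESeq2 called 6 of 8 tested members lower, beside 2166 of 15938 genes lower and 2289 higher. With sample quality weights, limma called 9 of 9 lower, beside 3548 of 15953 genes lower and 3875 higher.

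The next comparison asked how the enzymes differed between the aged groups, by the antibody injected. Ass1 was at 720, 2237, 798 and 1410 CPM in aged aPD1ab replicates 1 to 4, all above the highest aged IgG2a library (707 CPM), with a log2 fold change of 1.87 (SE 0.52, edgeR BH-adjusted p = 0.109). The other 8 members overlapped between the aged groups, each through aged IgG2a replicate 1 alone, and of the 16330 genes kept 7.05% were higher and 4.65% lower without overlap. Gatm with aPD1ab was at 223, 490, 321 and 1074 CPM, so that replicate 4 was far above the rest and replicate 1 lay below the highest IgG2a library (252 CPM). Its log2 fold change was 1.44 (SE 0.46, edgeR BH-adjusted p = 0.116). Gldc was high in replicates 2 and 4, at 28.2, 120, 16.6 and 134 CPM, with a log2 fold change of 2.50 (SE 0.84, edgeR BH-adjusted p = 0.123). Sardh was at 126, 252, 107 and 147 CPM, with a log2 fold change of 1.34 (edgeR BH-adjusted p = 0.131).

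Of the neighbors on chromosome 13, Dmgdh was at 23.7, 75.5, 27.6 and 20.4 CPM with aPD1ab and Bhmt2 at 22.9, 73.2, 31.1 and 21.2 CPM. Replicate 2 was the highest for both. The log2 fold changes were 1.72 for Dmgdh (edgeR BH-adjusted p = 0.171) and 1.98 for Bhmt2 (edgeR BH-adjusted p = 0.131). Bhmt was at 1.68, 6.92, 5.39 and 5.14 CPM, from 42, 170, 95 and 183 reads, with the greatest log2 fold change of the members, 2.57 (SE 0.81, edgeR BH-adjusted p = 0.115). Replicates 2 to 4 lay above every aged IgG2a library, and replicate 1 lay below aged IgG2a replicate 1. Hpd was at 8.61, 43.6, 21.0 and 11.3 CPM, a log2 fold change of 2.32 (edgeR BH-adjusted p = 0.115). Fah was at 116, 345, 134 and 147 CPM, a log2 fold change of 1.79 (edgeR BH-adjusted p = 0.115), and replicate 1 again fell just under aged IgG2a replicate 1.

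Over all mapped libraries edgeR called 0 of the 9 members and 0 of the 15530 genes tested (0% higher, 0% lower), with 9 members and 4341 genes at an unadjusted p under 0.05. DESeq2 called 8 of 8 tested members higher, beside 1390 of 14908 genes higher and 983 lower. With sample quality weights, limma called 9 of 9 higher, beside 3240 of 15530 genes higher and 2920 lower. The median log2 fold change was 1.87 for the members and -0.01 for all genes. Without aged IgG2a replicate 1, edgeR called 9 of 9 members higher, beside 17.1% of genes higher and 13.2% lower, and no member overlapped between the groups. Over the 16330 genes kept, 24.2% had all aPD1ab libraries higher and 18.0% had all lower in that case. The log2 fold changes then ran from 1.58 for Gatm (SE 0.51, edgeR BH-adjusted p = 0.0488) to 4.15 for Bhmt (SE 0.63, edgeR BH-adjusted p = 0.00737). The aged IgG2a libraries left in that fit hold 2 to 8 reads of Bhmt, so its size is loosely fixed.

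**Figure D2:**
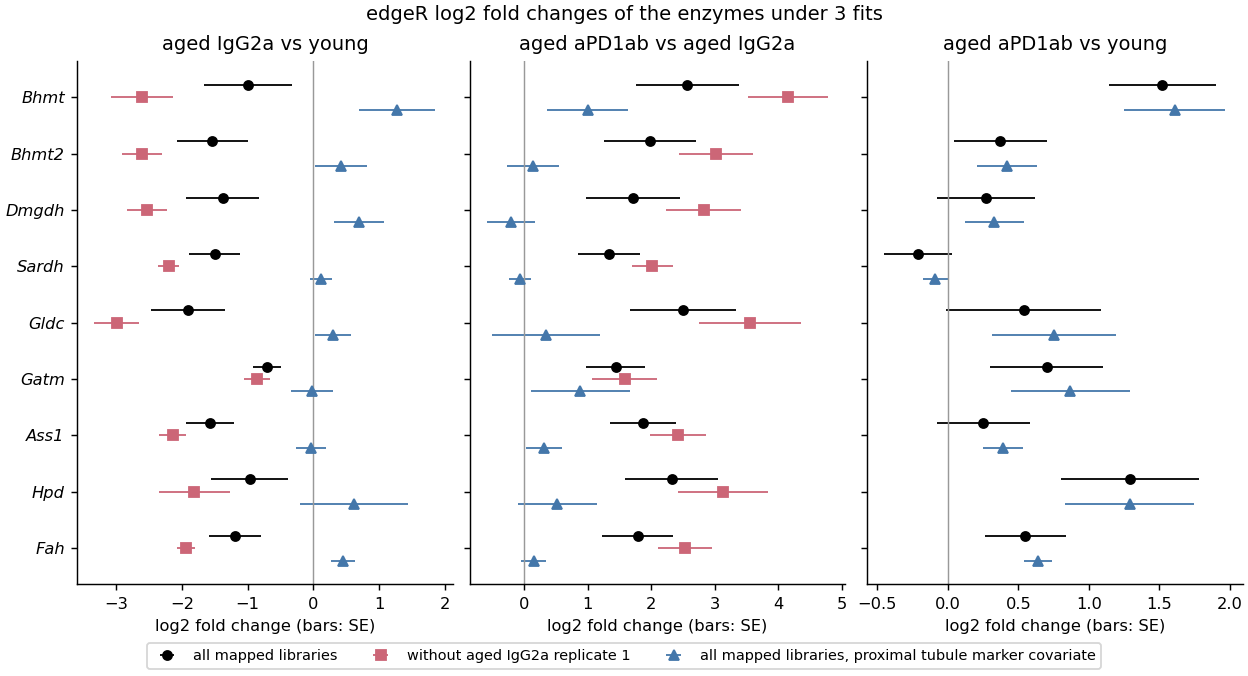
edgeR log2 fold changes with their SE for the 9 mRNAs in the 3 comparisons, over all mapped libraries (circles), without aged IgG2a replicate 1 (squares, not part of the last comparison) and with the mean of the proximal tubule markers as a covariate (triangles). Leaving out replicate 1 moves all 9 mRNAs away from 0 in both comparisons that use the IgG2a group, and the covariate brings the medians to 0.42 and 0.31.

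Aged aPD1ab-injected mice were also set against young mice, and here the aged IgG2a libraries play no part. All 9 members overlapped between the groups, where 11.2% of the 16330 genes kept were higher and 10.4% lower without overlap. Bhmt rose, from 2.16, 2.26, 1.59, 0.973 and 1.42 CPM in young mice to the 1.68 to 6.92 CPM given above, with a log2 fold change of 1.52 (SE 0.38, edgeR BH-adjusted p = 0.0198). Replicates 2 to 4 of the aPD1ab group lay above all young libraries and replicate 1 lay among them. The call held with each library left out in turn, at an edgeR BH-adjusted p of 0.00451 to 0.0476, and was lost in the fit of all 3 groups together (log2 fold change 1.51, edgeR BH-adjusted p = 0.102) and with the mean of the podocyte markers as a covariate (0.79, edgeR BH-adjusted p = 0.320). Hpd had a log2 fold change of 1.29 (SE 0.49, edgeR BH-adjusted p = 0.0849). The other members lay between -0.21 for Sardh (edgeR BH-adjusted p = 0.552) and 0.70 for Gatm (edgeR BH-adjusted p = 0.234). One member, Bhmt, was thus called higher and 0 lower, beside 12.4% and 9.97% of the 15986 genes tested, and the median was 0.54 for the members and 0.02 for all genes. Without aged aPD1ab replicate 2, the library with the highest CPM of 7 of the 9 members, the median was 0.06 and Sardh was called lower (log2 fold change -0.53, edgeR BH-adjusted p = 0.0377). Without aged aPD1ab replicate 1, Hpd was called as well (log2 fold change 1.54, edgeR BH-adjusted p = 0.0420).

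The proximal tubule markers moved with the members. Of the 20 markers, 17 were called lower and 0 higher in aged IgG2a-injected against young mice (median log2 fold change -1.86), and 20 were called lower without replicate 1. Between the aged groups 0 of 20 were called over all libraries by edgeR (median log2 fold change 1.77) and 20 were called higher without replicate 1. Between aPD1ab-injected and young mice 0 of 20 were called, with a median of 0. With the mean of these markers as a covariate, 0 members were called in either comparison with the aged IgG2a group, by edgeR, with 1 and 0 members at an unadjusted p under 0.05. These fits called 37 of 15953 genes against young mice and 0 of 15530 between the aged groups, with 2444 and 929 at an unadjusted p under 0.05. The count of 0 is therefore not particular to the members. With the covariate, the members' median log2 fold change was 0.42 against young mice and 0.31 between the aged groups. The marker level and the group go together in these libraries, so their parts cannot be told apart.

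**Figure D3:**
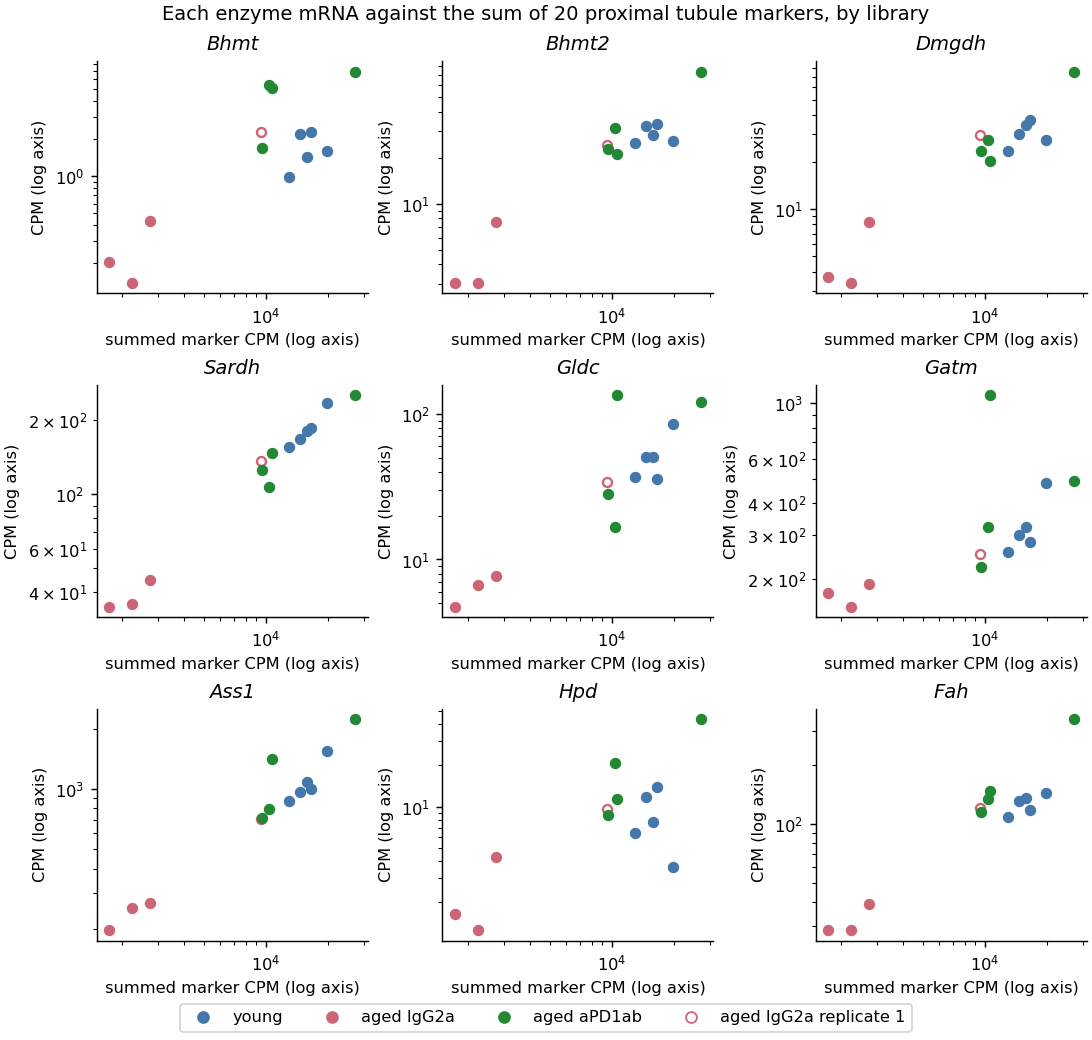
CPM of each mRNA against the summed CPM of the 20 proximal tubule markers, both on log axes, with 1 point per library. Aged IgG2a replicates 2 to 4 lie at the lower left in each panel, at marker sums of 1730 to 2742 CPM, and all other libraries have sums of 9498 CPM or more.

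To describe the members beside the tubule content of each library, their reads were set against 1000 reads on the proximal tubule markers. Most genes shift on this scale. Of the 16330 genes kept, 72.3% were higher without overlap and 0.0796% lower with IgG2a than in young mice, 33.2% were lower with aPD1ab than with IgG2a, and 3.85% were higher and 0.870% lower with aPD1ab than in young mice. Of the members Sardh, Gatm and Fah, 3 of 9, were higher without overlap with IgG2a than in young mice, and 0 were lower. Sardh was at 11.2 to 12.0 reads per 1000 marker reads in young mice and at 14.4 to 20.3 with IgG2a, all higher, while aPD1ab gave 13.2, 9.27, 10.3 and 13.8, all below IgG2a. Fah was at 7.08 to 9.00 in young mice, 12.8 to 16.5 with IgG2a and 12.2 to 13.8 with aPD1ab. All 8 aged libraries thus lay above all 5 young ones for Fah. In the fit with the marker covariate, the log2 fold change of Fah against young mice was 0.64 with aPD1ab (SE 0.10, edgeR BH-adjusted p = 0.00182) and 0.45 with IgG2a (SE 0.18, edgeR BH-adjusted p = 0.282). The covariate fit of aPD1ab against young mice called 2 of 9 members higher, beside 2800 of 15986 genes higher and 2530 lower. Without a covariate Fah was not called with aPD1ab (0.55, edgeR BH-adjusted p = 0.194), and with the podocyte markers as covariate the sign turned (-0.35, edgeR BH-adjusted p = 0.352).

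Gatm had the highest ratio of the members between aged IgG2a-injected and young mice, 3.27 times, although its CPM was lower with IgG2a (log2 fold change -0.70). The marker reads fell more than Gatm did, and 72.3% of all genes kept were higher without overlap on this scale. Gatm was at 16.8 to 24.4 reads per 1000 marker reads in young mice, at 26.6, 101, 69.3 and 68.9 with IgG2a and at 23.3, 18.0, 31.0 and 101 with aPD1ab. Aged IgG2a replicate 1 lay near the young range, and aPD1ab replicate 4 was as high as the highest IgG2a library. Gldc was also high in aPD1ab replicate 4, at 12.5 against 1.60 to 4.43 in the other 3 and 2.15 to 4.29 in young mice. In that library Kap, a gene driven by androgens, was 8.24% of the marker reads, against 33.8 to 40.7% in young mice. Its part in these ratios was not tested by a fit. With Kap left out of the markers, a choice made after seeing the data, Gatm with IgG2a was still above young mice in all 4 libraries, by 3.05 times in the ratio of means.

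Bhmt per 1000 marker reads was 0.0751 to 0.147 in young mice and 0.176, 0.254, 0.520 and 0.483 with aPD1ab, without overlap, and 0.0615 to 0.238 with IgG2a, which overlapped with both. In the fit with the marker covariate its log2 fold change between aPD1ab-injected and young mice was 1.61 (SE 0.36, edgeR BH-adjusted p = 0.00726), against 0.79 with the podocyte markers in their place (edgeR BH-adjusted p = 0.320). Hpd was at 0.182 to 0.840 in young mice and 0.900 to 2.02 with aPD1ab, also apart. Without Kap the libraries of Hpd overlapped and those of Bhmt did not. Bhmt2 (1.84 ± 0.340 and 2.52 ± 0.432, n = 5 and 4), Dmgdh (1.94 ± 0.342 and 2.46 ± 0.382) and Ass1 (68.1 ± 6.58 and 91.7 ± 27.3) overlapped between young and aPD1ab-injected mice, as did Sardh, Gldc and Gatm.

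**Figure D4:**
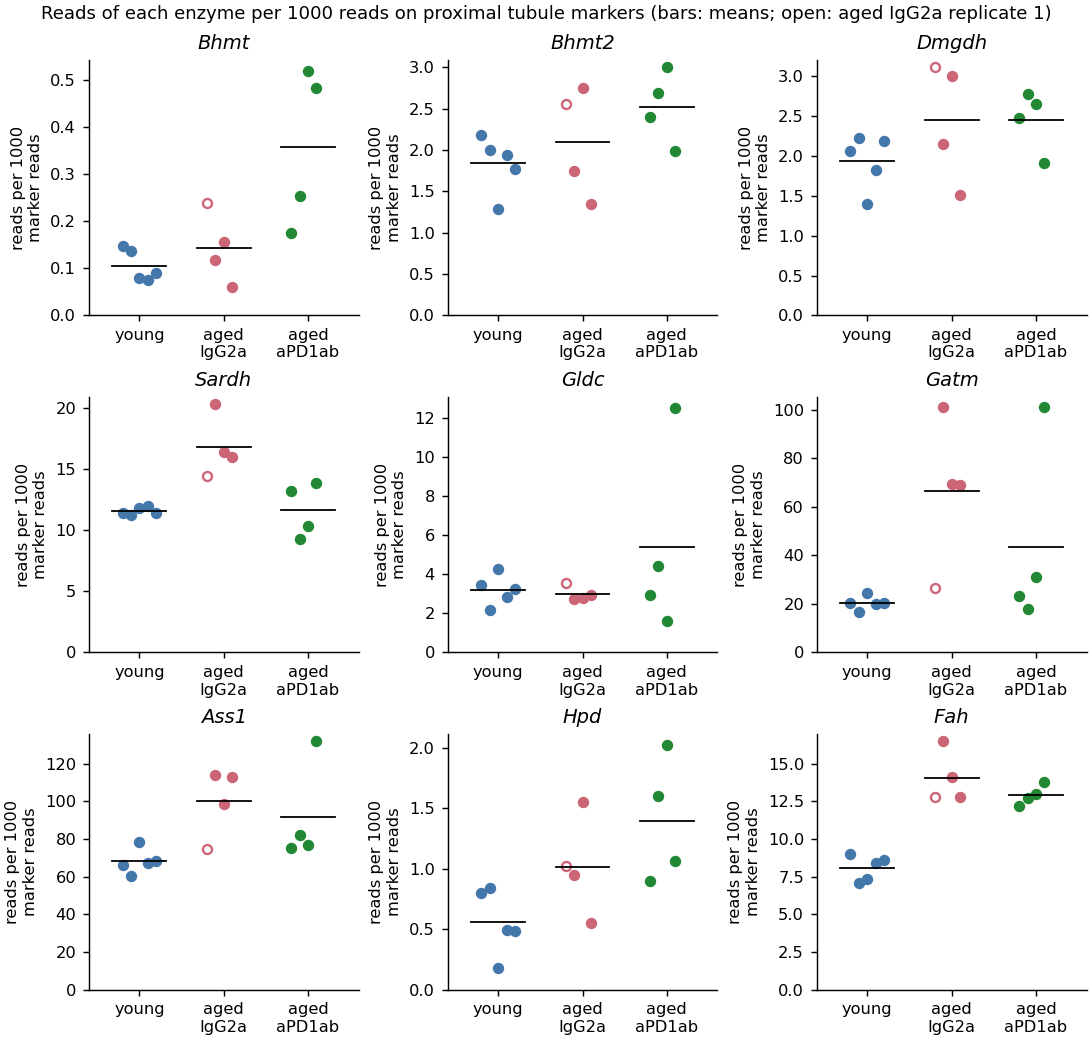
Reads of each mRNA per 1000 reads on the 20 proximal tubule markers, with 1 point per library, bars at group means and axes that start at 0. Fah is at 12.2 or more in all 8 aged libraries and at 9.00 or less in the young ones, and for Gatm aged aPD1ab replicate 4 stands at 101.

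Markers of other cells moved as well. The 8 macrophage markers, led by Csf1r and C1qa, summed to 1408 to 2512 CPM in young mice and 1519 to 3661 CPM with aPD1ab. With IgG2a their sum was 2028 to 6607 CPM, and 4972 to 6607 CPM without replicate 1. Over all libraries 7 of 8 were called higher with IgG2a than in young mice. Of the 12 podocyte markers 9 were called lower and 1 higher in the same comparison, and 4 lower and 0 higher with aPD1ab against young mice. The 6 loop and distal tubule markers, led by Umod, summed to 6170 to 8833 CPM in young mice, 5610 to 12937 CPM with IgG2a and 5289 to 9768 CPM with aPD1ab. The collecting duct markers (410 to 1089, 513 to 1019 and 647 to 1080 CPM) and the T and B lymphocyte markers (56.4 to 161, 61.5 to 266 and 49.2 to 149 CPM) overlapped between all groups. Endothelial markers summed to 682 to 1010, 532 to 656 and 328 to 890 CPM, and mesangial and stromal markers to 193 to 269, 106 to 164 and 120 to 166 CPM. Several members are also known from liver. Of 11 hepatocyte markers Ahsg and Mup3 had 0 reads in every library, while 7 had over 3 counts in every library. Of the 8 that could be tested, 3 were called higher and 0 lower with aPD1ab against young mice, beside 12.4% of all genes higher and 9.97% lower. These were Alb, at 1.87 to 3.99 CPM in young mice and 4.24 to 14.0 CPM with aPD1ab (log2 fold change 1.38, edgeR BH-adjusted p = 0.0243), Fga, at 5.37 to 10.6 and 5.79 to 58.0 CPM (1.92, edgeR BH-adjusted p = 0.0458), and Serpina1a, at 0.134 to 1.68 and 0.520 to 12.0 CPM (2.61, edgeR BH-adjusted p = 0.0499). Fgb had 0.336 to 1.83 and 0.881 to 9.25 CPM (2.06, edgeR BH-adjusted p = 0.0652), and Apob 56.4 to 88.2 and 42.9 to 259 CPM (0.80, edgeR BH-adjusted p = 0.244). With IgG2a against young mice 2 of the 8 were called lower, Apob and Ttr, and between the aged groups edgeR called 0 over all libraries and 8 higher without aged IgG2a replicate 1. Cyp2e1 made up most of that list's sum, 573 to 950 CPM in young mice, 97.2 to 567 with IgG2a and 449 to 1253 with aPD1ab. In each group the library with the highest sum of this list also had the highest proximal tubule marker sum. The part of the markers other than those of proximal tubule and podocytes in the members' differences was not tested.

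The members did not all follow each other equally closely. As a measure, the SD of the log2 ratio of any pair of genes over the 13 libraries was taken, which is 0 when the ratio is the same in every library. Bhmt2 and Dmgdh had the smallest value among the members, 0.16, and each was the nearest of all 16330 genes to the other. Reads of Bhmt2 were 0.810 to 1.13 times those of Dmgdh over the 13 libraries, while either level ranged from about 3 to over 70 CPM. These are the genes whose starts face away from each other across the 130 bases printed above. Of 781 pairs of expressed genes with starts that diverge within 1000 bases, 19 had an SD of 0.16 or less, and the median was 0.40. Genes that vary little also give small values, and the log2 CPM of Bhmt2 and Dmgdh had an SD of 1.35 and 1.29. Only 4 of the pairs, this one included, had both genes with an SD over 1, and their median was 0.44. The libraries share tubule content, depth and handling, so the value of 0.16 describes how the genes moved here. Reads of Bhmt, the paralog of Bhmt2, ranged from 0.0388 to 0.243 times those of Bhmt2. The ratio was 0.0388 to 0.0678 in young mice, 0.0455 to 0.0933 with IgG2a and 0.0733, 0.0945, 0.173 and 0.243 with aPD1ab.

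**Figure D5:**
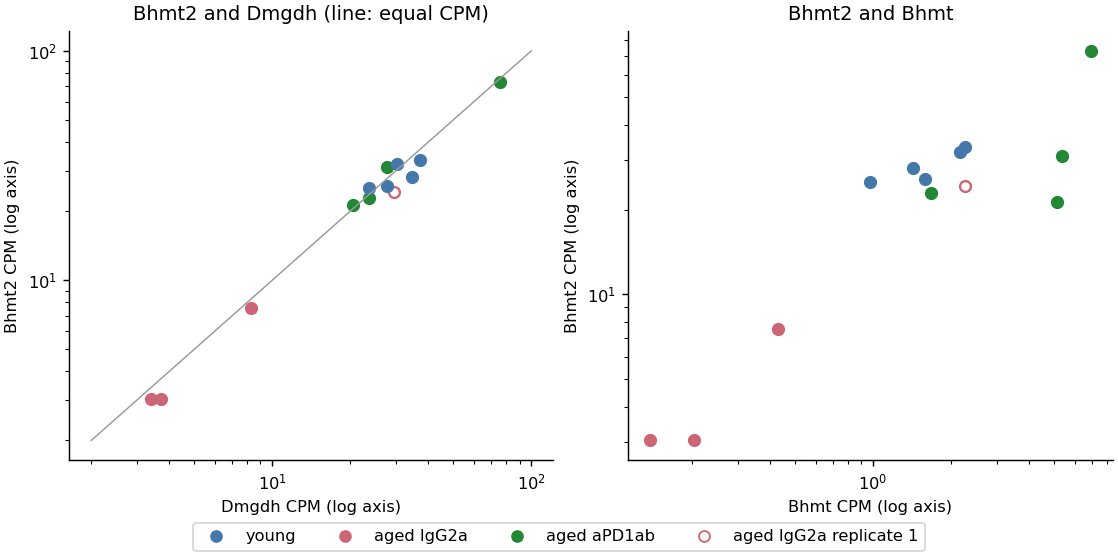
Bhmt2 CPM against Dmgdh CPM (left, line of equal CPM) and against Bhmt CPM (right), all on log axes, with 1 point per library. The points of Bhmt2 and Dmgdh follow the line, with read ratios of 0.810 to 1.13, whereas Bhmt reads are 0.0388 to 0.243 times those of Bhmt2.

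By the same measure the 3 nearest genes were taken for each member. Ass1 was nearest to Abcg2, Folr1 and Tinag, at 0.12, 0.13 and 0.14, and Fah to Tmem150a, Cth and Acy1, at 0.15, 0.17 and 0.18. Ddah1 was among the nearest to Sardh, at 0.18. Bhmt2 was nearest to Dmgdh, Eci3 and Slc51b, at 0.16, 0.21 and 0.31, and Dmgdh to Bhmt2, Eci3 and Adtrp, at 0.16, 0.25 and 0.26. Among the nearest to Gatm were Slc7a8 and Slc7a7, both at 0.29, which are transporters of amino acids. Gldc had Slc5a2, the glucose transporter of the early tubule, Cyp2d26 and Igsf11, at 0.34, 0.40 and 0.42. The nearest were Ftcd, Cyp2a4 and Bhmt at 0.50, 0.55 and 0.58 for Hpd, and Gm15883, 1700016C15Rik and Fitm1 at 0.42, 0.50 and 0.56 for Bhmt. The median over all genes ran from 0.84 for Gatm to 1.59 for Bhmt.

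Neighboring steps of the same pathways were taken from lists, whose counts stand beside 8.38% of all genes called lower and 9.05% higher in aged IgG2a-injected against young mice, and 12.4% higher and 9.97% lower with aPD1ab against young mice. Among 20 tested genes of choline, betaine, methionine and folate metabolism, 8 were called lower and 1 higher in aged IgG2a-injected against young mice. Cbs, which draws homocysteine toward cysteine, fell by 1.81 in log2 units (edgeR BH-adjusted p = 0.0162) and Chdh, which makes betaine aldehyde from choline, fell by 1.25 (edgeR BH-adjusted p = 0.0200). The gene that rose was Slc6a12, a betaine transporter, with 1.37 (edgeR BH-adjusted p = 0.0160), and it rose with aPD1ab against young mice too, by 1.40 (edgeR BH-adjusted p = 0.0164). Gnmt, which makes sarcosine from glycine, rose by 1.01 in that last comparison (edgeR BH-adjusted p = 0.0154), where 3 of 20 were called higher and 1 lower. Of 14 tested genes of glycine and serine metabolism 6 were called lower with IgG2a against young mice, among them Hoga1 (-1.34, edgeR BH-adjusted p = 0.0233) and Agxt2 (-1.78, edgeR BH-adjusted p = 0.0271), and 0 higher. Against young mice 4 were called higher with aPD1ab, led by Gcat (0.85, edgeR BH-adjusted p = 0.00727).

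The arginine and creatine list was divided. Of 14 tested genes 2 were called lower in aged IgG2a-injected against young mice and 2 higher. The ornithine carrier Slc25a15 fell by 1.31 (edgeR BH-adjusted p = 0.0244) and Ddah1 by 1.38 (edgeR BH-adjusted p = 0.0443), whereas Ckb, a creatine kinase, rose by 0.60 (edgeR BH-adjusted p = 0.0213) and Arg1, an arginase also known from macrophages, by 2.87 (edgeR BH-adjusted p = 0.0262) from 0 to 0.305 CPM in young mice to 0.469 to 2.17 CPM. For phenylalanine and tyrosine, 3 of 10 tested genes were called lower, among them Gstz1 (-1.17, edgeR BH-adjusted p = 0.0348), the step before Fah. In the same list 5 of 10 were called higher with aPD1ab against young mice, with the smallest p-values for Mif (edgeR BH-adjusted p = 0.00408) and Got1 (0.71, edgeR BH-adjusted p = 0.00730). Of 10 tested genes of tryptophan and lysine breakdown, 8 were called lower with IgG2a against young mice, among them Haao (-0.86, edgeR BH-adjusted p = 0.00676) and Acmsd (-2.48, edgeR BH-adjusted p = 0.00873). Shares near those of all genes were seen in the last lists. The branched-chain list had 1 of 19 called lower, Aldh6a1 (-1.22, edgeR BH-adjusted p = 0.0335), and the proline, histidine and glutamine list had 1 of 12 called lower, Prodh (-1.19, edgeR BH-adjusted p = 0.0408), and 1 higher, Pycr1 (1.92, edgeR BH-adjusted p = 0.0342).

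Between the aged groups, edgeR called 0 genes of these lists over all libraries. Their median log2 fold changes were 0.72 for the betaine list, 1.22 for glycine and serine, 0.86 for arginine and creatine, 1.47 for phenylalanine and tyrosine, 0.66 for branched-chain amino acids, 1.47 for tryptophan and lysine and 0.39 for proline, histidine and glutamine. Without aged IgG2a replicate 1 the counts called higher, in the same order, were 14 of 20, 13 of 14, 8 of 14, 10 of 10, 16 of 19, 8 of 9 and 5 of 12, and Mtr (-0.48, edgeR BH-adjusted p = 0.0451) was the only gene of these lists called lower. Over all genes, 17.1% were called higher and 13.2% lower in that fit. Against young mice, leaving out that library gave 14 of 20, 10 of 14, 8 of 14, 8 of 10, 15 of 19, 8 of 10 and 5 of 12 called lower. In the same order, 1, 0, 2, 0, 0, 0 and 1 were called higher, beside 23.5% of all genes lower and 22.1% higher.

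Reads of close copies could be split in counting. Windows of 50 bases in the Ass1 transcripts were found in another annotated gene for 38.6% of windows, all in the pseudogene Gm5424, which took 15 to 209 reads per library, 0.409% of the reads of Ass1. For Bhmt the share was 26.1%, with over 100 windows each in Gm5096 and Bhmt-ps1, which took at most 6 reads in any library. Reads that fit a gene and its copy equally may also have been counted for neither. The few reads on the copies do not show how many were lost, and the levels of Ass1 and Bhmt could be too low. Antisense genes that overlap exons of Bhmt, Dmgdh and Sardh held 8 reads or fewer over all 13 libraries.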

How the data were processed

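RNA of the podocyte fraction was sequenced from TruSeq RNA libraries. The authors deposited counts, the whole number of reads per Ensembl gene without normalization; HISAT2, featureCounts and mm10/GRCm38 are named in the submitters' processing notes, while their versions and the strand setting are not given in the sources used here. Columns were tied to groups by the numbers printed in the study's plot of principal components; 13 were used, and 2 that it does not show were not used. Nothing in the labels says which samples share a batch. Replicate numbers follow column numbers. Each mouse gave 1 library.

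The 9 members and the gene lists were chosen with earlier results of these data known. Symbols, positions and exon lengths came from GENCODE M21 (GRCm38), for 45229 of 46078 genes. Each pair of groups was fitted in R 4.3.3 with edgeR 4.0.16 (filterByExpr, TMM, robust quasi-likelihood), with Benjamini-Hochberg adjustment over all genes tested and calls at an adjusted p under 0.05. SE is the log2 fold change divided by the square root of F. CPM were scaled by TMM over all 13 libraries, and TPM used exon length. All members were named; from each of 7 pathway lists (110 genes), up to 2 genes per direction with the smallest adjusted p were to be named in each comparison, and the text gives a part of them; for likeness, the 3 genes with the smallest SD of the log2 ratio. Alternatives were median-ratio (RLE) scaling, DESeq2 1.42.0, limma 3.58.1 with sample quality weights, a fit of all 3 groups, other filters, a 2-fold threshold, marker covariates and leaving out each library. DESeq2 gave no p for Bhmt2 in aged IgG2a vs young and for Dmgdh in aged aPD1ab vs aged IgG2a. On simulated counts with 200 genes changed by 2 on the log2 scale, edgeR recovered 100% in each comparison, with 17, 6 and 12 false calls among 16011, 15732 and 15975 genes. These counts were drawn with the same spread between libraries for every gene and with no library that stands apart. The recovery therefore does not carry over to the real libraries, where edgeR called 0 of 15530 genes between the aged groups. No pair of libraries of a group agreed within sampling noise. CPM of 3 reads was 0.0917 to 0.151, which covers counting error only. Protein sequences were not used here. Some named genes are not reported here.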

Additional observations from a re-analysis of the deposited data

Results flagged for a closer look

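Of 27 groups of values examined (9 mRNAs in 3 groups), 8 held a library whose distance from its nearest neighbor took up more of the group's range than a 95% limit (Dixon) allows. For normally distributed values, chance alone marks about 1 group in 20. The 9 mRNAs come from the same libraries and are not independent, so the number of flags cannot be set against that rate. Aged IgG2a replicate 1, the highest of its group for all 9 mRNAs, passed this limit for 5: Bhmt at 2.26 CPM against 0.138 to 0.431, Sardh at 136 CPM against 35.0 to 45.1, Gldc at 33.9 CPM against 4.74 to 7.65, Ass1 at 707 CPM against 196 to 269 and Fah at 121 CPM against 28.5 to 38.8. Its proximal tubule marker sum was also the highest of that group, at 9498 CPM against 1730 to 2742.

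Aged aPD1ab replicate 2, the highest of its group for 7 mRNAs, passed it for Dmgdh, at 75.5 CPM against 20.4 to 27.6, and for Fah, at 345 CPM against 116 to 147. This library had a marker sum of 27197 CPM, against 9559 to 10650 in the other 3. Young replicate 3 passed it for Gatm, at 483 CPM against 256 to 321, and had the highest marker sum of that group, 19825 CPM. The part of the marker sum in these single values was not tested.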

How the results depend on the processing

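Leaving Kap out of the tubule markers was chosen after seeing the data and moved no ratio of means beyond the spread between replicates. It did end the separation of Hpd between aPD1ab-injected and young mice, whose libraries then overlapped. No paired analysis was possible because the columns carry no replicate number shared between groups.

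In aged IgG2a vs young, the 4 members called became 9 with limma and quality weights, 2 in the fit of all 3 groups, 1 with no filter on low counts, 0 with either marker covariate, and 0 to 9 with 1 library left out. Genes called (2780) became 4455 by DESeq2, 7423 by limma, 2282 in the fit of all 3 groups and 1893 with no filter on low counts. They became 1353 with the 2-fold threshold, 37 with the tubule covariate and 0 with the podocyte covariate (807 at an unadjusted p under 0.05). With 1 library left out they were 553 to 7397. Between the aged groups the 0 members called became 8 by DESeq2, 9 by limma, 8 in the fit of all 3 groups and 0 to 9 with 1 library left out, where 9 came only without aged IgG2a replicate 1. Genes called (0) became 2373, 6160 and 2863, and 0 to 4788 with 1 library left out. In aged aPD1ab vs young the 1 member called became 2 by DESeq2, 0 in the fit of all 3 groups, 2 with the tubule covariate, 0 with the podocyte covariate, and 1 to 2 with 1 library left out. Genes called (3578) became 4620 by DESeq2, 2902 in the fit of all 3 groups and 5330 with the tubule covariate. They became 766 with the 2-fold threshold, 988 with the podocyte covariate, and 2369 to 3868 with 1 library left out.

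Signs of log2 fold changes turned in these fits. In aged IgG2a vs young, the tubule covariate gave 1.28 for Bhmt, 0.42 for Bhmt2, 0.69 for Dmgdh, 0.12 for Sardh, 0.30 for Gldc, 0.62 for Hpd and 0.45 for Fah, and the podocyte covariate gave 1.40 for Bhmt, 0.97 for Bhmt2, 1.17 for Dmgdh, 2.15 for Hpd and 0.43 for Fah. Between the aged groups, the tubule covariate gave -0.21 for Dmgdh and -0.07 for Sardh. In aged aPD1ab vs young, the podocyte covariate gave -0.74 for Bhmt2, -0.87 for Dmgdh, -0.53 for Ass1, -0.11 for Hpd and -0.35 for Fah, limma gave -0.16 for Bhmt2 and -0.28 for Dmgdh, and leaving out aged aPD1ab replicate 2 gave -0.20 for Bhmt2, -0.35 for Dmgdh and -0.16 for Ass1, the lowest with 1 library left out (highest 0.57, 0.47 and 0.44). Of 153, 144 and 153 member values under alternatives in the 3 comparisons, 89, 108 and 137 kept direction and side of the threshold. The cause of these changes was not tested. Bhmt rested on 2 to 183 reads per library, which limits its precision.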
